A study of Mus musculus with 3 samples.

Results

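Small RNAs of cells labelled as fibro/adipogenic progenitors (FAPs) of mouse muscle were compared between muscle 5 days after cardiotoxin and normal muscle. The comparison covered 366 of the 659 mature mouse microRNA (miRNA) names of the deposited table. These were the names with a mean of at least 10 counts after scaling each library to 1000000 (CPM) over both libraries, with the marks for end and base differences cut off the names and equal names summed. Of the other 293 names, 52 had no count in either library and 241 had counts but lay below the filter. The cardiotoxin library came from WT muscle treated with cardiotoxin, a snake venom toxin after which muscle fibres die and grow anew. The normal library came from uninjured WT muscle. The remaining library, from WT muscle 3 weeks after sciatic denervation, is given beside some results and was set against the same normal library. The cells of all 3 libraries are labelled as primary FAPs, taken from muscle with no culture. Neither how they were isolated nor the number, strain, age and sex of the animals is given in the sources used here.

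FAPs are mesenchymal cells that lie between the muscle fibres, multiply after injury, and can form fibroblasts or fat cells. Leukocytes, above all neutrophils and macrophages, enter injured muscle during the same days. A miRNA hairpin can yield a product from its 5′ arm (5p) and its 3′ arm (3p), and each product finds its target messenger RNAs mainly through its seed, bases 2 to 8. Neighbouring hairpins are often cut from a shared transcript, so that their products tend to vary together.

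The cardiotoxin library held 3636249 counts, the denervated library 7193088 and the normal library 4471365, of which mature mouse names held 98.4% in cardiotoxin and 99.0% in normal. Each condition was 1 library, so no replicate error, no test between conditions and no p-value can be given. A miRNA was called higher or lower at 2-fold on the scale log2(CPM + 1). Folds were taken from CPM without the added 1, and their 95% intervals, given in parentheses, account for counting error alone, because without molecular identifiers reads cannot be counted as molecules. A fold against a count of 0 was set against 3 counts in that library (0.825 CPM in cardiotoxin, 0.671 CPM in normal) and is written as at least that value.

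The miRNAs on which the largest differences rest are shown 5′ to 3′ as in RefSeq (GRCm38.p6), with the seed in capitals.
miR-21a-5p: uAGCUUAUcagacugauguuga
miR-223-3p: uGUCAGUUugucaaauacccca
miR-142a-3p: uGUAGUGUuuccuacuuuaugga
miR-199b-3p: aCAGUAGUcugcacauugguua
miR-125b-5p: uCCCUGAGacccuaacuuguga
miR-127-3p: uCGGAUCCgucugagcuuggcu
The hairpin of miR-21a spans positions 86584067 to 86584158 of chromosome 11 (minus strand), in an exon of Vmp1. That of miR-223 spans 96242817 to 96242926 of chromosome X (plus strand), in an exon of a non-coding gene, and that of miR-142a on the plus strand of chromosome 11 from 87756864 to 87756927, in an intron of the non-coding Mir142hg. The genes of miR-199b (plus strand of chromosome 2, from 32318460 to 32318569) and miR-127 (plus strand of chromosome 12, from 109592846 to 109592915) lay in no annotated host gene on their own strand. All positions are in GRCm38. No row was named miR-199a-3p, so it cannot be told whether that of miR-199b-3p also holds products of the miR-199a hairpins.

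2 families whose members share a seed but stood on opposite sides of the normal library are shown next, so that the bases outside the seed can be compared.
miR-15b-5p: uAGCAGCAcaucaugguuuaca
miR-16-5p: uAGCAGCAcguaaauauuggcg
miR-195a-5p: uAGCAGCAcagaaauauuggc
miR-497a-5p: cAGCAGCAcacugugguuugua
miR-130b-3p: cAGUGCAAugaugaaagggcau
miR-130a-3p: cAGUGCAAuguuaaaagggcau
The let-7 family, whose members share the seed and nearly all other bases, is shown because its composition differed between the libraries.
let-7i-5p: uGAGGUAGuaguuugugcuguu
let-7g-5p: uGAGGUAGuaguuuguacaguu
let-7a-5p: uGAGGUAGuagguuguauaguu
let-7c-5p: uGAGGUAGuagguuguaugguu
let-7b-5p: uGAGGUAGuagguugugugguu
let-7e-5p: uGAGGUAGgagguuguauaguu
With let-7a-5p as the reference and positions counted from 1 at the 5′ end, let-7c-5p differed by A19G, let-7b-5p by A17G and A19G, let-7e-5p by U9G, let-7g-5p by G12U and U18C, and let-7i-5p by G12U, A17G, U18C and A19U. The deposited table listed under let-7a-5p a second row, marked as an A-to-G change at base 19. Its sequence was that of let-7c-5p, and its counts equalled those of the let-7c-5p row.
Deposited row of let-7a-5p with the change and of let-7c-5p: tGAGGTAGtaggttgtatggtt
3 hairpins whose more abundant arm was another in cardiotoxin than in normal gave these products.
miR-671-5p: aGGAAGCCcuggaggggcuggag
miR-671-3p: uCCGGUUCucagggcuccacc
miR-335-5p: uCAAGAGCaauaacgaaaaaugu
miR-335-3p: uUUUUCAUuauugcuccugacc
miR-322-5p: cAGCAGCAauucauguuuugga
miR-322-3p: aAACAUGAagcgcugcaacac

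The 2 libraries differed in most of the miRNAs measured. Of the 366 miRNAs, 261 (71.3%) were called in either direction and 105 were within 2-fold. Of all miRNAs, 109 (29.8%) were at least 2-fold higher in cardiotoxin, and the other calls (41.5%) were at least 2-fold lower. Among the called were 28 with no count in cardiotoxin and 7 with none in normal, whose calls follow from the filter. For the same 366 miRNAs, 26 (7.10%) were higher and 28 (7.65%) lower in denervated against normal. At 10-fold or more, 26 were higher and 92 lower in cardiotoxin, and at 100-fold or more 5 were higher and 26 lower. Log2 ratios ran from -8.98 for miR-199b-5p to 9.33 for miR-223-3p, with a median of -0.36, a 10th percentile of -6.24 and a 90th percentile of 2.85. The share called was alike at all levels, from 65.3% of the 75 miRNAs with a mean of 10 to 30 CPM to 74.5% of the 110 with a mean of 100 to 1000 CPM, and 69.6% of the 92 above that.

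The library total bears on these counts, because miR-21a-5p alone held 53.9% of the cardiotoxin counts (53.8 to 53.9), against 2.14% of the normal counts (2.13 to 2.16). Where miR-21a-5p was left out of both totals, the median of all log2 ratios stood 1.07 higher and 170 miRNAs were higher and 121 lower, so that 58.4% of the calls were higher, against 41.8% with the full totals. Leaving out the 5 most abundant miRNAs moved the median by 0.77 and gave 151 higher, which was 54.7% of the calls. TMM factors, DESeq2 size factors and the authors' normalized signal moved it by -0.28, -0.21 and -0.28. Differences far larger than these shifts, shares within a family and the balance of the arms of a hairpin do not rest on the choice of the total.

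**Figure D1:**
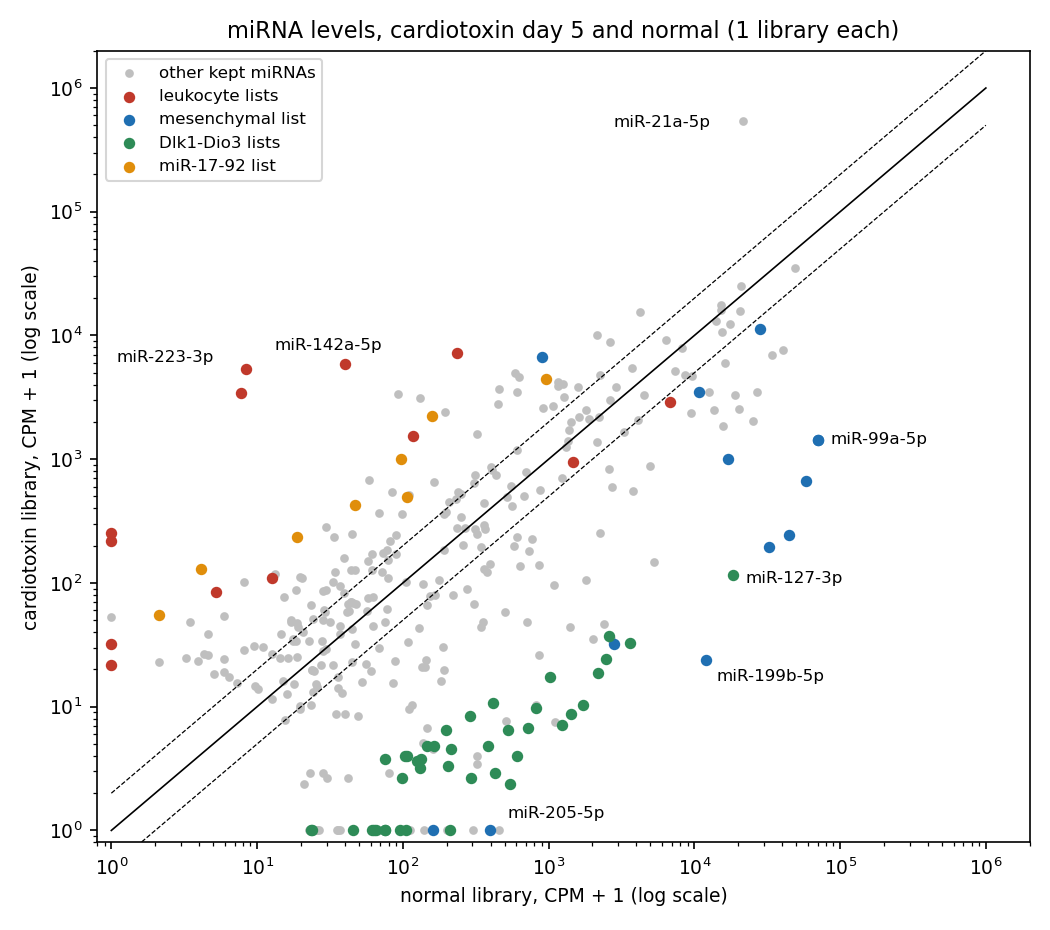
Level of each of the 366 miRNAs in the cardiotoxin library (vertical axis) against the normal library (horizontal axis), both as CPM + 1 on log scales, 1 point per miRNA, with the diagonal as a solid line and 2-fold as dashed lines. miR-21a-5p stands alone at 538721 CPM in cardiotoxin, the leukocyte lists stand mostly above the diagonal, and the mesenchymal and Dlk1-Dio3 lists mostly below it.

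The most abundant miRNAs differed. Among the 12 most abundant of each library only miR-21a-5p, miR-22-3p and miR-27b-3p were shared. miR-126a-3p ranked 7 in cardiotoxin with 15374 CPM, against rank 40 in normal with 4251 CPM. miR-99a-5p ranked 69 in cardiotoxin with 1441 CPM, against rank 1 in normal with 70613 CPM. The row of miR-100-5p, marked as an A-to-T change at base 16, carried the same deposited sequence as the miR-99a-5p row and equal counts. That sequence was the one of miR-99a-5p without its last base, so miR-100-5p gives no value of its own here. miR-125b-5p ranked 87 in cardiotoxin against 3 in normal, and miR-199a-5p ranked 131 against 8. The cardiotoxin library was more concentrated, with 70.0% of its counts in the 10 most abundant miRNAs against 45.5% in normal. Without miR-21a-5p it was less so, since 68 miRNAs were needed to reach 90% of the mature counts, against 53 in normal.

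With miR-21a-5p, 12 miRNAs linked to injury and inflammation passed the filter, 8 of them higher (29.8% of all miRNAs), 1 lower (41.5% of all) and 3 within 2-fold, with a median log2 ratio of 2.40 against -0.36 over all miRNAs. miR-21a-5p itself, which is induced in many injured tissues, was at 538721 CPM in cardiotoxin and 103762 CPM in denervated, against 21423 CPM in normal. The other arm of its hairpin, miR-21a-3p, was at 681 CPM in cardiotoxin and 57.7 CPM in normal, 11.8-fold higher (10.4 to 13.5). miR-146a-5p and miR-146b-5p share a seed and damp inflammatory signalling, and both were called higher. miR-146a-5p was at 4976 CPM in cardiotoxin and 449 CPM in denervated, against 584 CPM in normal. miR-146b-5p was at 1593 CPM in cardiotoxin and 750.3 CPM in denervated, against 320.3 CPM in normal. miR-155-5p, induced in activated leukocytes, was at 111 CPM in cardiotoxin against 18.8 CPM in normal, 5.90-fold higher (4.65 to 7.56). miR-31-5p was at 20.4 CPM in cardiotoxin and 24.9 CPM in denervated, against a count of 0 in normal, at least 30.3-fold higher in cardiotoxin. Its higher call follows from the filter, which it passed through the cardiotoxin library alone. The arms of miR-132 and miR-212, cut from a shared transcript, stood closer to normal, with log2 ratios from 0.10 to 1.21. That of miR-132-5p dropped under 2-fold when TMM factors (0.93) or the authors' signal were used, and that of miR-212-5p was below 0 with TMM factors (-0.17), DESeq2 factors and the signal. The 1 lower member was miR-125a-5p, at 2035 CPM in cardiotoxin against 25309.5 CPM in normal.

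The 5 highest ratios with a mean of at least 100 CPM were those of leukocyte miRNAs. Both arms of miR-142a, made across blood cell lineages, and all 5 myeloid miRNAs were called higher (29.8% of all miRNAs), with medians of 7.99 and 7.77 (8.34 with the 3 myeloid members at a count of 0 in normal set to their bound). The calls of those 3 follow from the filter, and so does that of miR-147-3p. miR-223-3p, the leading miRNA of neutrophils, was at 5406 CPM in cardiotoxin and 47.3 CPM in denervated, against 7.38 CPM in normal, 732-fold higher (521 to 1064) in cardiotoxin. Its other arm, miR-223-5p, was at 253 CPM in cardiotoxin against a count of 0 in normal, at least 378-fold higher. Both arms of miR-511, which lies within the macrophage mannose receptor gene Mrc1, were also found in cardiotoxin and had no count in normal or denervated. miR-511-3p was at 218 CPM and miR-511-5p at 31.4 CPM in cardiotoxin. miR-147-3p, induced in activated macrophages, was at 82.8 CPM in cardiotoxin against 4.25 CPM in normal. As shares of the library, the miR-142a arms held 0.926% in cardiotoxin, 0.0229% in denervated and 0.00461% in normal, and the myeloid list 0.599% in cardiotoxin, 0.00523% in denervated and 0.00116% in normal.

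Of the 6 lymphoid miRNAs, 4 were higher (29.8% of all miRNAs), 1 lower (41.5% of all) and 1 within 2-fold, with a median of 3.42. Summed, the list held 1.27% of the counts in cardiotoxin, 0.672% in denervated and 0.861% in normal. miR-342-3p, made from an intron of Evl, was at 7220.4 CPM in cardiotoxin against 234 CPM in normal, and miR-150-5p, a miRNA of mature lymphocytes, at 1542 CPM against 116 CPM. The lower member was miR-181a-5p, a miRNA of early lymphocytes that many other cells also make, at 2879.6 CPM in cardiotoxin against 6782 CPM in normal, a call that was lost in the total without miR-21a-5p (log2 ratio -0.15). The deposited sequence of the miR-142a-5p row began 2 bases before the RefSeq product and so carried another seed.
Deposited row of miR-142a-5p: cCCATAAAgtagaaagcacta
RefSeq product of miR-142a-5p: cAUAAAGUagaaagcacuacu
Among the 375 rows behind the 366 miRNAs, 160 matched the RefSeq product exactly, 133 had the same seed and other ends, 42 had another seed and 40 had no entry in the table used. In the row with the early start, miR-142a-5p stood at 5833 CPM in cardiotoxin and 39.4 CPM in normal.

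The label FAP was set against 14 miRNAs of mesenchymal cells, since no miRNA on any list marks FAPs alone. Of the 13 that passed the filter, 12 were lower (41.5% of all miRNAs) and 1 was higher, with a median of -6.45 against -0.36 over all miRNAs. Of the 12, 2 had a count of 0 in cardiotoxin, so that their calls follow from the filter. The row of miR-100-5p repeats that of miR-99a-5p, and with both merged 11 of 12 were lower at a median of -6.45. Summed, the list held 2.66% of the counts in cardiotoxin, 32.2% in denervated and 34.8% in normal. The data of the cardiotoxin library thus go against its label as far as these markers reach, and it is called here by its treatment. The leukocyte lists were higher in the same library, and their part in the results was not tested. In RNA from whole cell preparations, fewer cells of a type and less RNA per cell cannot be told apart.

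Arms of the miR-199 and miR-214 hairpins, which are made in mesenchymal cells and driven by the transcription factor Twist1 in development, held the 4 lowest ratios of the list. miR-199b-5p was at 22.8 CPM in cardiotoxin against 12015 CPM in normal, 526-fold lower (425 to 661). miR-214-3p was at 31.4 CPM in cardiotoxin against 2819 CPM in normal, and miR-214-5p had a count of 0 against 397 CPM, at least 482-fold lower. miR-125b-5p, which keeps progenitors from differentiating in several tissues, was at 664 CPM in cardiotoxin against 58043 CPM in normal. The differences were far from even. miR-22-3p was still at 11317 CPM in cardiotoxin against 28212 CPM in normal, and miR-10b-5p at 3498 CPM against 10719 CPM. Both were within 2-fold in the total without miR-21a-5p, with log2 ratios of -0.23 and -0.53, and without the 5 most abundant miRNAs. miR-10a-5p was the 1 member above normal, at 6712 CPM in cardiotoxin and 357 CPM in denervated, against 906 CPM in normal. Over the 11 members with a count in cardiotoxin, the level there was a median of 2.04% of that in normal and ranged from 0.190% to 741%. The smooth muscle and pericyte list, the arms of miR-143 and miR-145a, was lower in all 4 members (41.5% of all miRNAs) but kept more, at 8.73% to 21.9% of the normal level.

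The largest block of lower miRNAs lay on chromosome 12, in the imprinted Dlk1-Dio3 region, where a long maternal transcript with the genes Meg3, Rian and Mirg gives rise to many hairpins. Between positions 109571990 and 110278129 (GRCm38), 51 arms of 37 hairpins passed the filter, and all 51 were called lower, against 32.1% of the 315 miRNAs elsewhere. They made up 33.6% of all lower calls. Their median log2 ratio was -6.02 (-6.24 with the 17 members at a count of 0 in cardiotoxin set to their bound), and the nearest to normal, miR-380-3p, stood at -3.27. Those 17 passed the filter through the normal library alone, so that their calls follow from the filter. The same holds for members at only a few CPM in cardiotoxin, such as miR-127-5p (1.38 CPM) and miR-409-5p (1.93 CPM). The count of lower arms is therefore partly set by the filter. Together the region held 0.0358% of the counts in cardiotoxin and 4.30% in normal. Elsewhere on the same chromosome, 4 arms were higher and 5 lower. The region did not stand apart in denervated, where the 9 miRNAs antisense to Rtl1 had a median log2 ratio to normal of -0.31 and the 33 of the Mirg list one of -0.01.

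Among the miRNAs antisense to Rtl1, miR-127-3p was at 116 CPM in cardiotoxin against 18289.7 CPM in normal, 158-fold lower (144 to 175). miR-434-3p was at 23.4 CPM in cardiotoxin against 2475 CPM in normal. miR-136-3p, from the same transcript, was at 9.35 CPM in cardiotoxin against 1712 CPM in normal. Each of these 3 was more than 100-fold lower. In the Mirg group, miR-379-5p, the start of the cluster, was at 31.6 CPM in cardiotoxin against 3596 CPM in normal. miR-541-5p was at 36.0 CPM in cardiotoxin against 2583 CPM in normal, and miR-411-5p at 17.9 CPM against 2175 CPM. All members of both lists were also at least 2-fold lower with each of the 6 other scalings. For the 1 antisense and the 10 Mirg members at a count of 0 in cardiotoxin this follows from the filter. It does so too for members near 0 there, such as miR-136-5p (1.65 CPM) and miR-154-5p (2.20 CPM). miR-1247-5p, at the far end of the region, had a count of 0 in cardiotoxin and 979.8 CPM in denervated, against 303 CPM in normal. 5 other miRNAs of imprinted hosts passed the filter, with 1 higher and 1 lower (0 higher and 2 lower with TMM factors), beside 29.8% and 41.5% of all miRNAs. miR-335-5p, made from an intron of Mest, was at 57.2 CPM in cardiotoxin against 501 CPM in normal.

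**Figure D2:**
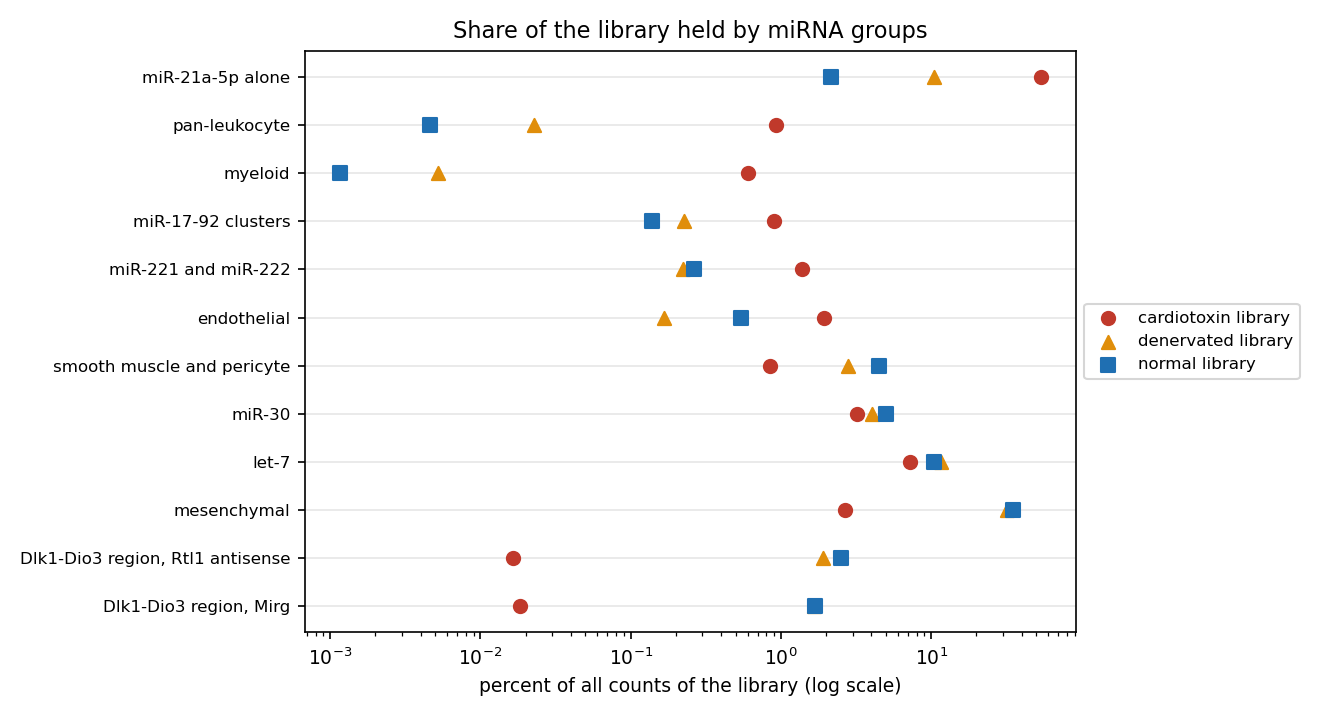
Share of all counts of the library (horizontal axis, percent on a log scale) held by miR-21a-5p and by the summed members of 11 lists in the cardiotoxin (circles), denervated (triangles) and normal (squares) libraries, 1 library each. The leukocyte lists were higher in cardiotoxin and the mesenchymal and Dlk1-Dio3 lists lower, while let-7 and miR-30 lay within 2-fold of normal in both. These shares are of the full totals, and without miR-21a-5p the medians of let-7 and miR-30 lie above 0.

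The miR-17-92 transcript, a target of Myc that favours cell division and survival, had 8 of 8 kept members higher (29.8% of all miRNAs), with a median of 3.52, and 2 of its 10 listed members below the filter. miR-92a-3p, its most abundant product, was at 4438 CPM in cardiotoxin against 959 CPM in normal. miR-20a-5p was at 2227 CPM in cardiotoxin against 157 CPM in normal, and miR-17-5p at 1004 CPM against 96.2 CPM. miR-18a-5p had the highest ratio of the group, at 129 CPM in cardiotoxin against 3.13 CPM in normal, 41.1-fold higher (24.3 to 75.8). Its call and that of miR-18a-3p (1.12 CPM in normal) follow from the filter, which both could pass only through the cardiotoxin library. The related cluster in the replication gene Mcm7 showed smaller differences. Of its 6 arms 5 were higher (29.8% of all miRNAs), with a median of 1.44, and 3 were with TMM factors, DESeq2 factors or the authors' signal. The call of miR-25-5p, at 4.92 CPM in normal, follows from the filter. The highest ratio of the cluster was that of miR-93-5p, at 2789 CPM in cardiotoxin against 446 CPM in normal. Its most abundant member in both libraries, miR-25-3p, was at 3804 CPM against 2888 CPM, within 2-fold with the full totals. Of the paralogous cluster on the X chromosome, miR-363-3p alone passed the filter, at 20.6 CPM in cardiotoxin against a count of 0 in normal. It passed through the cardiotoxin library alone, so that its call follows from the filter. All 4 arms of miR-221 and miR-222, which target the cell cycle inhibitor p27, were higher (29.8% of all miRNAs) with a median of 2.41. The call of miR-222-5p, at 2.91 CPM in normal, follows from the filter. miR-221-3p was at 10034 CPM in cardiotoxin against 2146 CPM in normal, and miR-222-3p at 3682 CPM against 455 CPM.

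Of 9 miRNAs that hold back the cell cycle, 4 were higher and 4 lower, beside 29.8% and 41.5% of all miRNAs, and 3 were lower once rows of equal sequence were merged. miR-34a-5p, a target of p53, was at 3117 CPM in cardiotoxin and 113 CPM in denervated, against 130.4 CPM in normal, 23.9-fold higher (22.0 to 26.0). Its relatives from another gene went the other way, with miR-34c-5p at 47.3 CPM in cardiotoxin against 708 CPM in normal and miR-34b-3p at a count of 0 against 23.5 CPM. The call of miR-34b-3p follows from the filter. Over the 3 kept members of the miR-34 family the median was -3.88, and over those with a mean of at least 100 CPM it was 0.35. The list of hairpins within Clcn5 had 4 of its 8 members higher and 0 lower (median 0.95), beside 29.8% and 41.5% of all miRNAs. It had 2 higher with TMM factors, 8 higher in the total without miR-21a-5p and 6 without the 5 most abundant. Its leading member miR-501-3p was at 4587 CPM in cardiotoxin against 622 CPM in normal, 7.38-fold higher (7.09 to 7.68). The miR-322 cluster, whose members miR-322-5p and miR-503-5p also restrain the cell cycle, stayed nearer to normal. Of its 11 members 1 was higher (4 in the total without miR-21a-5p), beside 29.8% of all miRNAs. Its median of -0.27 was 0.79 in the total without miR-21a-5p and 0.49 without the 5 most abundant. miR-503-5p was at 216 CPM in cardiotoxin and 25.3 CPM in denervated, against 81.2 CPM in normal.

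**Figure D3:**
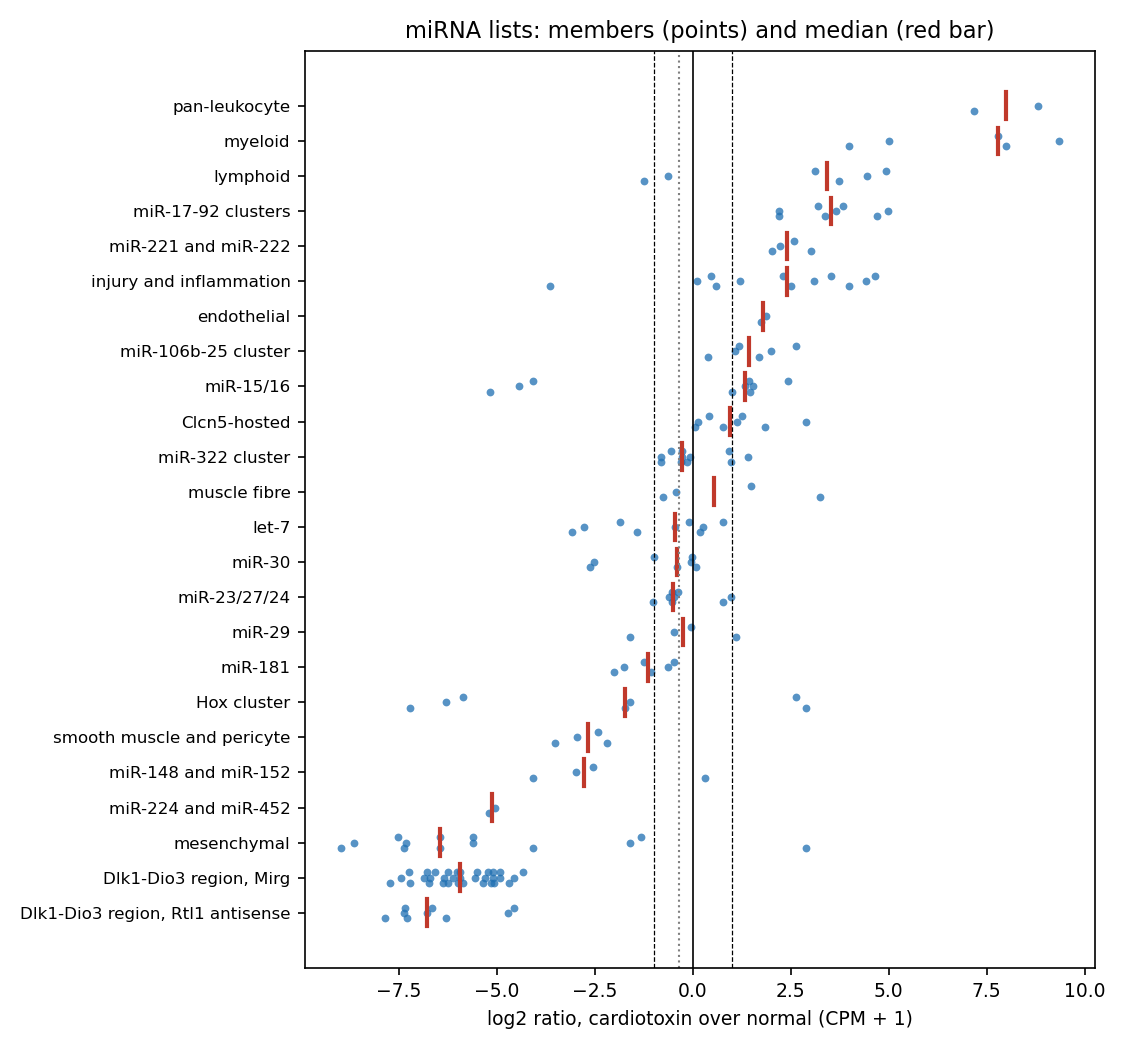
Log2 ratio of cardiotoxin over normal (CPM + 1) for the kept members of 24 miRNA lists, 1 point per miRNA, with the list's median as a red bar, 0 as a solid line, 2-fold as dashed lines and the median of all 366 miRNAs (-0.36) as a dotted line. Medians run from 7.99 for the miR-142a arms to -6.78 for the miRNAs antisense to Rtl1. Those of let-7, miR-30, miR-29, miR-23/27/24 and the miR-322 cluster are below 0 here and above 0 in the totals without miR-21a-5p or without the 5 most abundant miRNAs.

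The seed families differed in their members' calls and in their composition. Of 12 seed families with at least 3 kept members, 3 held both a higher and a lower member with the full totals. These were the families of miR-15/16, of miR-130 with miR-301, and of miR-29. The calls rest on the total, and the miR-29 family held no higher member with TMM factors (miR-29b-3p at 0.81), DESeq2 factors or the authors' signal, and no lower member in the total without miR-21a-5p (miR-29c-3p at -0.52). In the shares of a family the total cancels. In the miR-15/16 family, which represses cyclins and Bcl2, miR-16-5p made up 60.0% of the family in cardiotoxin (59.2 to 60.7) against 12.1% in normal (11.8 to 12.4). miR-497a-5p made up 3.24% in cardiotoxin (2.97 to 3.52) against 60.0% in normal (59.5 to 60.5). The denervated library kept the normal order, with miR-497a-5p at 50.9% and miR-16-5p at 18.7%. By level, miR-15b-5p was at 367 CPM in cardiotoxin against 67.5 CPM in normal, and miR-497a-5p at 145 CPM against 5287 CPM. Their seeds were identical in the sequences shown above, and their hairpins lay on chromosomes 3 and 11. Summed over the family, the level was 4495 CPM in cardiotoxin against 8817 CPM in normal. The family of miR-130 and miR-301 likewise exchanged its main member, with miR-130b-3p at 56.9% of it in cardiotoxin (51.1 to 62.5) against 1.16% in normal (0.582 to 2.07), and miR-130a-3p at 18.1% against 86.4%. This family was rare, at 83.6 CPM in cardiotoxin and 212 CPM in normal. In the miR-29 family, which represses collagens and other matrix genes, miR-29a-3p held 99.2% in cardiotoxin and 99.1% in normal, so that the calls of miR-29b-3p and miR-29c-3p touched under 1% of it.

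Families with no exchange of calls in the full totals also shifted. In the total without miR-21a-5p, let-7, miR-30 and the miR-148 and miR-152 family held both higher and lower members as well. In let-7, whose members promote differentiation, let-7i-5p held 35.0% in cardiotoxin (34.8 to 35.2) against 20.1% in normal (19.9 to 20.2), and let-7g-5p 24.4% against 14.8%. let-7c-5p, with the row of equal sequence counted under it, held 9.79% in cardiotoxin against 24.4% in normal, and let-7b-5p 2.59% against 15.3%. Whether the 2 rows of the let-7c-5p sequence split the same reads or repeat them is not stated. By 1 row alone let-7c-5p was at 12637 CPM in normal, below let-7i-5p at 20769 CPM, and the shares of the family would differ. The share of let-7f-5p was 18.4% in cardiotoxin against 13.6% in normal, that of miR-98-5p 1.04% against 0.421%, and that of let-7e-5p 0.772% against 3.66%. let-7a-5p (3.50% against 3.43%) and let-7d-5p (4.58% against 4.36%) were nearly even. let-7f-5p, let-7g-5p, let-7i-5p and miR-98-5p carried the changes G12A, G12U, G12U and G11A, and no other member differed from let-7a-5p at those bases, a grouping seen only after the values were known. By the summed rows let-7a-5p was called lower at a log2 ratio of -1.43, and its own exact row alone stood at -0.50. In the miR-30 family, miR-30d-5p held 50.8% in cardiotoxin against 31.2% in normal, and miR-30a-5p 10.6% against 38.9%. The miR-148 and miR-152 family, known for repressing the DNA methyltransferase Dnmt1, had miR-148b-3p at 32.4% in cardiotoxin against 3.55% in normal. The level of miR-148b-3p was within 2-fold with the full totals, at 1709.7 CPM in cardiotoxin against 1370.5 CPM in normal, and higher in the total without miR-21a-5p (log2 ratio 1.40), while miR-152-3p was at 1001 CPM against 16885 CPM and miR-148a-3p at 2559.5 CPM against 20364 CPM. In the miR-125 and miR-351 family, miR-351-5p held 20.6% in cardiotoxin, 0.351% in denervated and 1.46% in normal. In the miR-25/92 family, miR-92a-3p held 53.4% in cardiotoxin against 24.5% in normal, and miR-25-3p 45.7% against 73.9%.

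**Figure D4:**
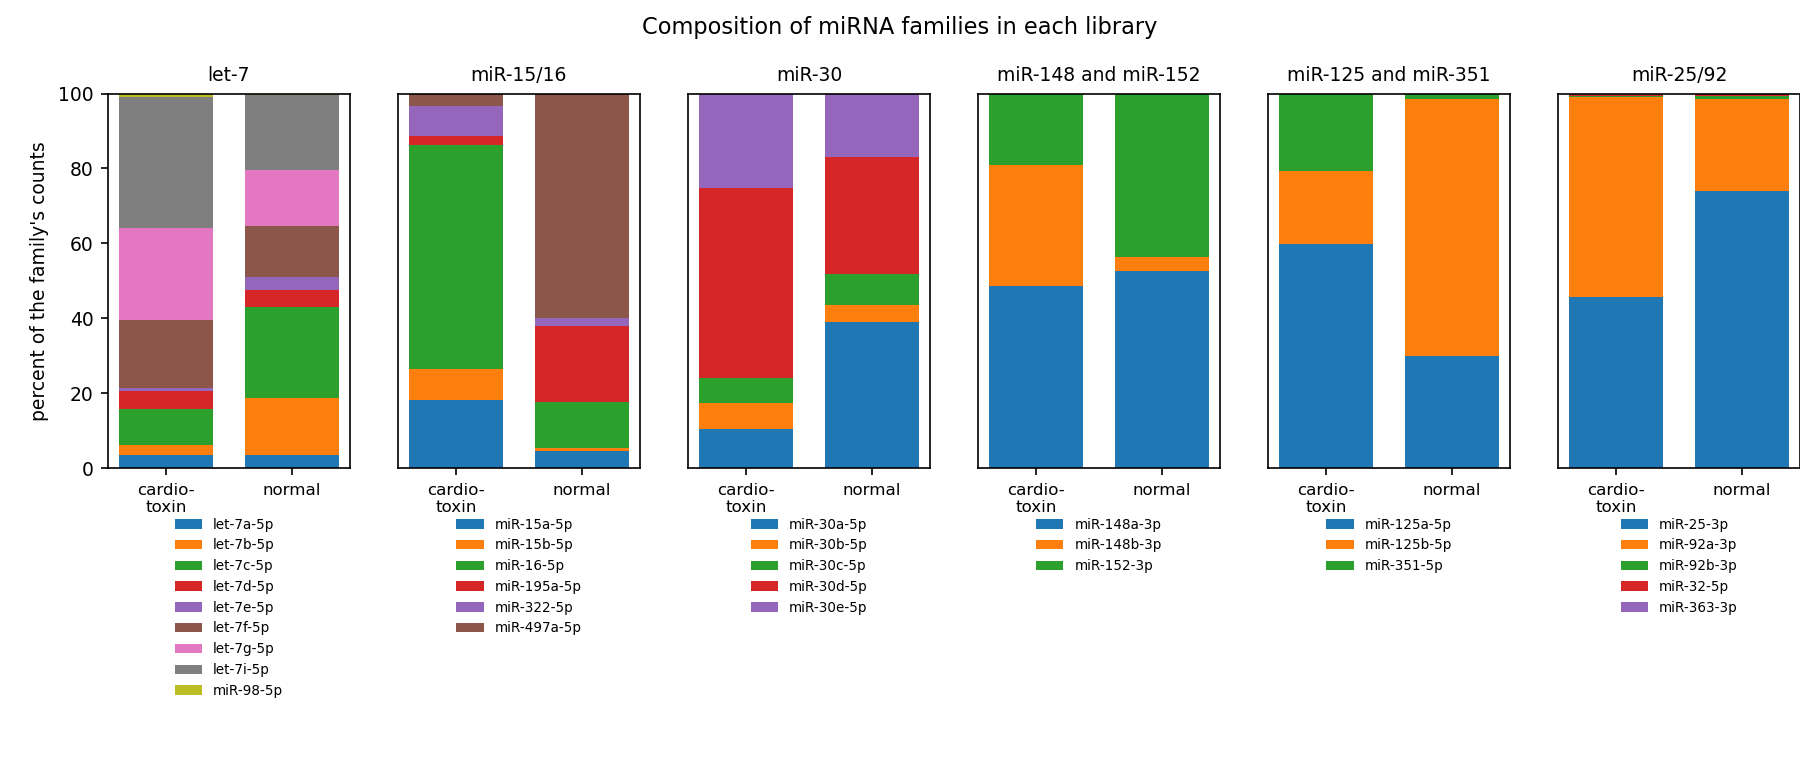
Share of each member in the summed counts of its seed family (vertical axis, percent), in cardiotoxin (left bar) and normal (right bar), 1 library each, for 6 families. miR-16-5p is the main member of its family in cardiotoxin at 60.0% and miR-497a-5p in normal at 60.0%. The largest let-7 member in cardiotoxin is let-7i-5p at 35.0%. In normal it is let-7c-5p at 24.4% with both rows of its sequence counted, and by 1 row alone let-7c-5p lies below let-7i-5p.

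Neighbouring hairpins mostly stood on the same side of normal. Of the kept arms, 131 could be placed in 24 genomic clusters, with at most 10 kb between hairpins on the same strand. With the full totals, 5 clusters had every arm higher, 6 had every arm lower and 0 held both. Over all miRNAs 29.8% were higher and 41.5% lower. These cluster counts were not repeated with other totals. Lower calls of arms with no count in cardiotoxin, such as miR-99a-3p, follow from the filter. The clusters with every arm higher were miR-17-92, miR-221 with miR-222, miR-15b with miR-16-2, miR-182 with miR-183, and miR-133b with miR-206. Those with every arm lower were the 2 clusters of the Dlk1-Dio3 region, miR-99a with let-7c-1, miR-224 with miR-452, miR-195a with miR-497a, and miR-125a with let-7e. With the total without miR-21a-5p or with TMM factors, each of these 11 cluster medians stayed on its side of 0. The miR-224 and miR-452 hairpins, within an intron of Gabre, were at 25.0 CPM in cardiotoxin against 855 CPM in normal for miR-224-5p. The median distance between the highest and the lowest arm of a cluster was 1.76 on the log2 scale.

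The arms of a hairpin also went together in most cases. Both arms passed the filter for 102 hairpins, and the calls of the arms were the same in 86 and opposite in 1, miR-3068, whose 3p arm was at 102 CPM in cardiotoxin against 32.0 CPM in normal and whose 5p arm was at 129 CPM against 362 CPM. The call of its 5p arm was lost in the total without miR-21a-5p (log2 ratio -0.40). The median difference between the log2 ratios of the arms was 0.75 in size. The balance of the arms within a library was then compared, for 85 hairpins with at least 100 counts in both libraries. It shifted by more than 10 percentage points in 25 hairpins in cardiotoxin against normal, 16 toward the 5p arm and 9 toward the 3p arm, and in 5 in denervated against normal. The median shift was 2.48 points in cardiotoxin and 1.24 points in denervated.

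In 6 hairpins, singled out after the values were seen, the more abundant arm was another in cardiotoxin than in normal, with both intervals off 50%. miR-671, made from an exon of Chpf2, had 64.0% of its reads on the 5p arm in cardiotoxin (58.6 to 69.2, of 328 counts), against 27.5% in normal (24.1 to 31.1, of 658 counts). The miR-335 hairpin had 42.6% on the 5p arm in cardiotoxin (38.2 to 47.1) against 76.7% in normal (75.2 to 78.3). For miR-322 the share was 64.9% in cardiotoxin (62.8 to 67.0) against 35.5% in normal (33.5 to 37.4). These were the largest of the 6. In miR-345 the 5p arm held 59.1% in cardiotoxin against 33.7% in normal, in miR-362 55.3% against 36.5%, and in miR-106b 54.8% against 40.7%. In all 6 the denervated library lay on the side of the normal library, for example at 30.7% for miR-671 and 73.4% for miR-335. For miR-322 neither arm was called on its own, since the 5p arm was at 360.3 CPM in cardiotoxin against 189 CPM in normal and the 3p arm at 195 CPM against 344 CPM.

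**Figure D5:**
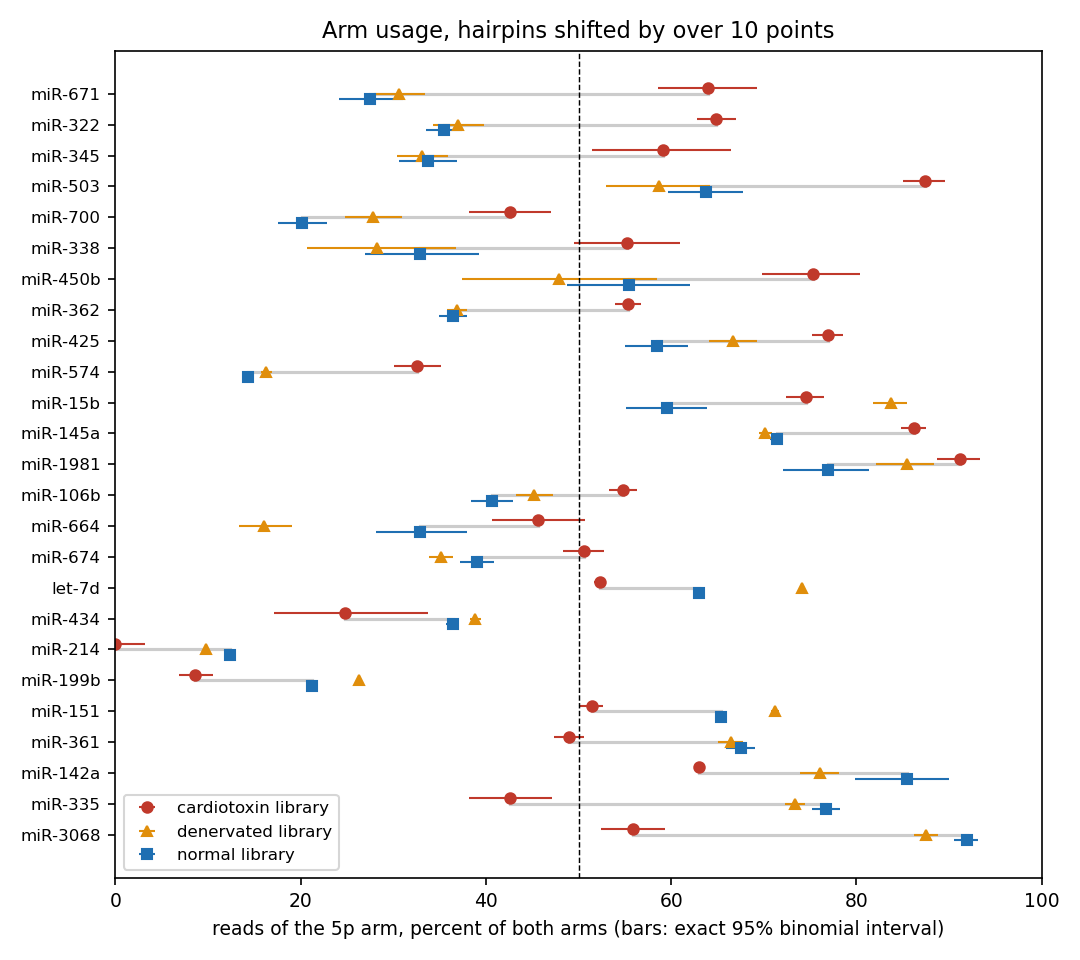
Share of the 5p arm in the reads of both arms (horizontal axis, percent) for the 25 hairpins whose share differed by more than 10 points between cardiotoxin (circles) and normal (squares), with denervated as triangles and exact 95% binomial intervals as bars. The denervated points lie nearer to normal than to cardiotoxin for most hairpins, let-7d among them and miR-15b not, and miR-671, miR-335 and miR-322 cross 50%. The share of miR-199b is uncertain, since its 3p row may also hold miR-199a products.

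Lists tied to what FAPs can become gave mixed counts. Of 9 miRNAs that favour fat cell formation, 3 were higher and 5 lower, beside 29.8% and 41.5% of all miRNAs. Their median was -1.47 with the full totals, -0.39 in the total without miR-21a-5p (4 higher, 4 lower) and -1.75 with TMM factors (1 higher, 5 lower). miR-193b-3p, which with miR-365-3p promotes brown fat, was at 3.58 CPM in cardiotoxin against 161 CPM in normal. miR-204-5p, which favours fat over bone, was at 66.3 CPM in cardiotoxin against 308 CPM in normal. miR-378a-3p, made from an intron of Ppargc1b, was on the other side at 4797 CPM in cardiotoxin against 2258 CPM in normal, a call lost with TMM factors (log2 ratio 0.80), DESeq2 factors and the authors' signal. Of 7 that hold fat formation back, 4 were higher (29.8% of all) and 1 lower (41.5% of all). The higher call of miR-31-5p follows from the filter. The median of the 7 was 2.22, and 0.87 over those whose mean reached 100 CPM. The most abundant of these, miR-27b-3p and miR-27a-3p, which repress Pparg, were within 2-fold. miR-27b-3p was at 34967 CPM in cardiotoxin against 48711 CPM in normal. The lists for fibrosis were no clearer. Of 8 miRNAs that favour it, 4 were higher, among them both arms of miR-21a, and 4 lower, among them miR-199a-5p and miR-214-3p (29.8% and 41.5% of all miRNAs). Of 9 that restrain it, 2 were higher and 3 lower, beside 29.8% and 41.5% of all miRNAs. The counts were 1 higher and 5 lower with TMM factors, and 3 higher and 2 lower in the total without miR-21a-5p. Their median was -0.75, and 0.32 in that total. miR-101a-3p, which represses the methyltransferase Ezh2, was at 3466 CPM in cardiotoxin against 27066 CPM in normal, and miR-26a-5p at 6964 CPM against 33919 CPM.

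Of 8 kept miRNAs of cartilage and skeletal mesenchyme, 2 were higher (29.8% of all miRNAs), 5 lower (41.5% of all) and 1 within 2-fold, and with TMM factors 1 was higher and 6 lower. The higher ones were the arms of miR-140, a cartilage miRNA made within Wwp2. miR-140-3p was at 8879 CPM in cardiotoxin against 2652 CPM in normal, and the call of miR-140-5p was lost with TMM factors (log2 ratio 0.79), DESeq2 factors and the authors' signal. miR-455-3p, another miRNA of cartilage, was at 34.1 CPM in cardiotoxin against 2684 CPM in normal, 78.7-fold lower (66.0 to 94.7). Of 7 miRNAs of the Hox clusters 2 were higher and 5 lower (3 lower in the total without miR-21a-5p), beside 29.8% and 41.5% of all miRNAs. Both arms of miR-10a, next to Hoxb4, were higher, and the call of miR-10a-3p, at 3.35 CPM in normal, follows from the filter. miR-196b-5p, of the Hoxa cluster, was at 34.1 CPM in cardiotoxin against 2025 CPM in normal. miR-196a-5p was at 6.46 CPM against 1102 CPM, and miR-615-3p, in the Hoxc cluster, at 9.35 CPM against 817 CPM. In these 3 the ratio was 59.4-fold lower (49.7 to 71.5) for miR-196b-5p, 171-fold lower (112 to 261) for miR-196a-5p and 87.4-fold lower (62.4 to 126) for miR-615-3p.

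The calls of several other families turned on the total, and are to be read beside 29.8% higher and 41.5% lower over all miRNAs. Of 9 let-7 members 0 were higher and 4 lower, 3 lower with rows of equal sequence merged, and 3 higher and 2 lower in the total without miR-21a-5p. Their median of -0.46 turned to 0.63 in the total without miR-21a-5p and 0.33 without the 5 most abundant. Of 7 miR-30 members 0 were higher (3 in the total without miR-21a-5p) and 2 lower, at a median of -0.41 that turned to 0.68 and 0.38 in those totals. The miR-23/27/24 hairpins, which act in endothelial and fat cells, had 0 of 8 members higher and 1 lower (2 higher and 0 lower in the total without miR-21a-5p), at a median of -0.50 that turned to 0.58 and 0.29. The 6 miR-181 members, which tune lymphocyte signalling, had 0 higher and 4 lower, at a median of -1.15, and 0 lower without miR-21a-5p in the total (median -0.08). Both miR-192-5p and miR-194-5p were lower, at a median of -1.32 that was -0.24 in that total. The 3 miR-101 members had a median of -1.90, with 2 lower (3 with TMM factors, 1 in the total without miR-21a-5p). miR-103 and miR-107, which act on insulin signalling, had a median of 0.83, with 1 higher. Neither was higher with TMM factors (median 0.54), DESeq2 factors or the authors' signal, and both were in the total without miR-21a-5p (median 1.91). miR-210-3p, induced by low oxygen, was within 2-fold with the full totals at 438 CPM in cardiotoxin against 357 CPM in normal, and so was miR-669c-5p, the 1 kept member of the Sfmbt2 list. Both were higher in the total without miR-21a-5p, with log2 ratios of 1.38 and 1.47.

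Markers of other cell types of muscle differed in part. Both arms of miR-126a, made within the endothelial gene Egfl7, were higher, with miR-126a-3p 3.62-fold higher (3.56 to 3.68), and they held 1.93% of the cardiotoxin counts, 0.166% of the denervated counts and 0.540% of the normal counts. Among 4 kept miRNAs of muscle fibres 2 were higher (29.8% of all miRNAs). miR-206-3p, made in regenerating fibres and satellite cells, was at 282 CPM in cardiotoxin and 728 CPM in denervated, against 28.9 CPM in normal. The fibre miRNA miR-1a-3p was at 506 CPM in cardiotoxin against 681 CPM in normal. Of 7 epithelial miRNAs, 4 were higher (29.8% of all) and 2 lower (41.5% of all). miR-205-5p, a miRNA of stratified epithelium, had a count of 0 in cardiotoxin and 11.8 CPM in denervated, against 457 CPM in normal. Its lower call follows from the filter. miR-200c-3p went the other way at 108 CPM in cardiotoxin against 19.5 CPM in normal. Of 2 kept erythroid miRNAs 1 was higher (29.8% of all miRNAs). This was miR-451a, at 17.3 CPM in cardiotoxin and 16.8 CPM in denervated, against 4.03 CPM in normal. Its call follows from the filter. The more abundant miR-486a-5p was within 2-fold with the full totals, at 75.4 CPM in cardiotoxin against 61.8 CPM in normal. miR-144-3p, below the filter, was at 1.38 CPM in cardiotoxin against 2.91 CPM in normal. Of the 5 neural miRNAs in the table, miR-128-3p alone passed the filter, at 244 CPM in cardiotoxin against 89.3 CPM in normal. The part of these cells in the other results was not tested.

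miR-7a-5p, on no list, had the highest ratio outside the leukocyte lists where the mean reached 100 CPM, at 3363 CPM in cardiotoxin and 89.6 CPM in denervated, against 91.2 CPM in normal, 36.9-fold higher (33.4 to 40.8). miR-339-5p, likewise on no list, was at 2414 CPM in cardiotoxin against 195 CPM in normal, 12.4-fold higher (11.6 to 13.3). Near the 2-fold line, among those whose mean reached 100 CPM, miR-361-3p, miR-326-3p and miR-15a-5p lay just inside the higher calls at log2 ratios of 1.06, 1.04 and 1.01, and miR-425-3p, miR-27a-5p and miR-350-3p just outside at 0.97, 0.96 and 0.93. On the lower side miR-24-3p, miR-700-3p and miR-194-5p lay just inside at -1.01, -1.05 and -1.15, and miR-335-3p, miR-101b-3p and miR-30c-5p just outside at -0.97, -0.98 and -0.99. Calls this close to the line turn on the scaling. At the filter on the mean, miR-31-5p, miR-363-3p and miR-669o-3p passed with means of 10.2, 10.3 and 10.4 CPM, and miR-369-5p, miR-1191a and miR-92a-1-5p did not, with means of 9.06, 9.10 and 9.25 CPM.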

How the data were processed

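Small RNA of 3 libraries (cardiotoxin, denervated, normal), 1 per condition, was given as 1 table. The authors' deposited raw columns hold estimated counts per miRNA row, partly fractional and used unrounded, and the authors' deposited normalized columns hold a signal equal to the raw value times 1 factor per library, with no rule stated for it. No aligner, counter or miRNA release is stated in the sources used here, and StringTie is named, with no role, in the submitters' processing notes. Rows carry miRNA names with marks for end and base differences, and reads shared between near-identical miRNAs were split or repeated by the authors' counting, so such members are uncertain. The column headed as control was taken as the normal library.

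Counts were divided by the column total, the marks cut off the names and equal names summed, and names with a mean under 10 CPM over both libraries left out (other species, hairpin rows and predicted candidates too). Ratios were log2(CPM + 1). Folds and shares carry exact 95% Clopper-Pearson intervals. Those of the folds were tried on simulated Poisson counts, which hold counting error alone, and those of the shares were not simulated. Scalings tried were edgeR 4.0.16 (TMM), DESeq2 1.42.0 and others, with no test, in R 4.3.3. Other steps used Python 3.11.15, pandas 2.3.3, numpy 2.4.6, scipy 1.17.1 and matplotlib 3.10.9. Of the 366 miRNAs, 306 matched 1 RefSeq locus (GRCm38.p6), 21 several and 39 none, and host genes are from GENCODE.

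The members, the 44 lists and the naming rule were chosen with earlier results of these data known. Named were the 12 most abundant miRNAs of each library, the 15 highest and 15 lowest ratios with a mean of at least 100 CPM, every kept member of lists of up to 6 and otherwise the 4 most abundant, the 3 on each side of each 2-fold line, the 5 arm pairs that differed most, and the extremes of each cluster and family. let-7c-5p, let-7d-5p, miR-155-5p, miR-31-5p, miR-193b-3p, miR-365-3p, miR-204-5p, miR-615-3p and the miRNAs at the filter were chosen after their values were seen.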

Additional observations from a re-analysis of the deposited data

Results flagged for a closer look

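8 miRNAs stood at least 2-fold on opposite sides of the shared normal library in cardiotoxin and in denervated, and the difference between the conditions was not tested. Lower in cardiotoxin and higher in denervated were miR-1247-5p, with a log2 ratio to normal of -8.25 in cardiotoxin and 1.69 in denervated, miR-34c-5p with -3.88 and 1.87, and miR-204-5p with -2.20 and 1.0. Higher in cardiotoxin and lower in denervated were miR-10a-5p, with 2.89 in cardiotoxin and -1.34 in denervated, both arms of miR-126a, with 1.85 and -1.64 for miR-126a-3p and 1.75 and -1.93 for miR-126a-5p, miR-503-5p with 1.40 and -1.64, and miR-326-3p with 1.04 and -1.02. The ratio of miR-326-3p in cardiotoxin was under 2-fold with TMM factors, DESeq2 factors and the authors' signal.

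Rows that the comparison does not use also held counts. Rows named after miRNAs of other species held 1.21% of the counts in cardiotoxin and 0.689% in normal, and of the 59 with a mean of at least 10 CPM 35 were higher and 9 lower. Rows of mouse hairpin sequence outside the named products held 0.360% in cardiotoxin and 0.256% in normal, with 7 of 13 higher and 1 lower. Predicted candidates held 0.0555% in cardiotoxin and 0.0248% in normal, with 6 of 7 higher and 0 lower.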

How the results depend on the processing

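No paired analysis was possible because each condition had 1 library, which also leaves no replicate to leave out. The count of higher miRNAs, 109 with the full totals, was 170 in the total without miR-21a-5p, 203 without a filter (of 607), 164 at a mean of at least 1 CPM (of 527) and 58 at a mean of at least 100 CPM (of 202). The count of lower miRNAs was 255 without a filter and 88 at a mean of at least 100 CPM. The share of miR-21a-5p in cardiotoxin was 54.8% over mature mouse names alone. All other alternatives left both counts within 1.5 times. Among the list medians past 2-fold, those of the epithelial list (-5.86) and of the miR-34 list (0.35) changed sign at a mean of at least 100 CPM, where fewer members remain. Of the list medians within 2-fold, 10 changed sign in at least 1 alternative. Among the named miRNAs that were called, miR-24-3p (0.072) and miR-700-3p (0.023) changed sign, both in the total without miR-21a-5p. Of 187 named ratios, 140 were called, and 31 of these fell under 2-fold in at least 1 alternative. Of the named ratios not called, 32 changed sign in at least 1 alternative. With rows of equal deposited sequence merged, an alternative chosen after seeing the data, 109 were higher and 150 lower of 363. Depth limits the ratios of the 28 miRNAs with no count in cardiotoxin and the 7 with none in normal to bounds, and no setting replaces the missing replicates.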
